A study of Homo sapiens with 6 samples.

Results

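The regions described here are the binding peaks of the transcription factors USF2 and PLAG1-S in 2 windows of the K562 genome that hold the genes of the BCR-ABL1 fusion. The first window spans 19 to 24 Mb of chromosome 22 and holds BCR, and the second spans the 2 Mb of chromosome 9 from 130 Mb and holds ABL1 (build hg38). Every peak of the 4 deposited lists that overlapped a window was taken, which gave 2986 of 81170 peaks. The windows were chosen by the local background of these same lists, which was known to be high there, so the background and the number of peaks are given as a description with no test. From the PLAG1-S lists they held 846 of 37574 peaks in clone 4 and 1050 of 29889 in clone 5. From the USF2 lists they held 703 of 9338 and 387 of 4369.

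K562 is a human erythroleukaemia cell line from a chronic myeloid leukaemia. Chromatin immunoprecipitation followed by sequencing (ChIP-seq) used its clones 4 and 5, each co-overexpressing USF2 and Flag-tagged PLAG1-S, the short isoform of PLAG1, from introduced constructs. Each clone gave an anti-Flag library (called PLAG1-S here), an anti-USF2 library and an input library, so that all 6 libraries carried both transgenes and no library came from parental K562. The replicate is therefore the clone, with 2 clones per factor, and the 4 peak lists were all called against the merged inputs of both clones. Nothing states separate cultures within a clone.

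BCR-ABL1 joins the 5′ part of BCR to the 3′ part of ABL1 and encodes a constitutively active tyrosine kinase, the driver of chronic myeloid leukaemia. K562 is known to carry the fusion with its flanking DNA in extra copies. USF2 is a basic helix-loop-helix leucine zipper factor that binds the E-box CACGTG, mostly near gene starts, and PLAG1 is a zinc finger factor that binds a G-rich core followed by a G-rich cluster. A peak caller sets the fragments over a site against a local background taken from input DNA, so a region with more input DNA is read against a higher expectation. Copy number was not measured here.

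The sequences below are the promoters of 4 genes with a peak of both factors in both clones within 1 kb of the start. KLHL22, PI4KA and FUBP3 were chosen because the strongest peaks of both factors in the windows lay on them, and BCR because it is a fusion partner. They are RefSeq sequences of GRCh38 from 250 bases before to 50 bases after the gene start, 5′ to 3′ on the strand of the gene. Capitals mark the E-box CACGTG and the G-rich PLAG core with its cluster, 2 G-rich blocks set 6 to 8 bases apart, both searched on both strands with overlaps allowed.

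KLHL22 (chr22:20495746-20496045, minus strand): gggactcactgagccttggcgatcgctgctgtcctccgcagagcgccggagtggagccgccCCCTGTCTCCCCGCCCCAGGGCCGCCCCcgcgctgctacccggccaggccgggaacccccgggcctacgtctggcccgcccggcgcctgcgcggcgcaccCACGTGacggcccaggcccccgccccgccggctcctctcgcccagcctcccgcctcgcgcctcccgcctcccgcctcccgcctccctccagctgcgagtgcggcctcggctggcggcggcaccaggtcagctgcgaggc

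PI4KA (chr22:20858762-20859061, minus strand): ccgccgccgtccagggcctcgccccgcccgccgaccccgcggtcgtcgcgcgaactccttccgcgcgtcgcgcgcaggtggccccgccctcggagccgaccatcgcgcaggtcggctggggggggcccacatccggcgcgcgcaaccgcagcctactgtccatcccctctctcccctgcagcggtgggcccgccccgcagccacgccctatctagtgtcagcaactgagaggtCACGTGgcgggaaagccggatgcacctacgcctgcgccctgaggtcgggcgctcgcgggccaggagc

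FUBP3 (chr9:130579327-130579626, plus strand): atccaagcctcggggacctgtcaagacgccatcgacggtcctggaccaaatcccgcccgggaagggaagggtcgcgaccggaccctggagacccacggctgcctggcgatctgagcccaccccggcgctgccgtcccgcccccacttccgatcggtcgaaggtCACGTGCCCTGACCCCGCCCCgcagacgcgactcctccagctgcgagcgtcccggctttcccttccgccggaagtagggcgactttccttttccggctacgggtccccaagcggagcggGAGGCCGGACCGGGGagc

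BCR (chr22:23180259-23180558, plus strand): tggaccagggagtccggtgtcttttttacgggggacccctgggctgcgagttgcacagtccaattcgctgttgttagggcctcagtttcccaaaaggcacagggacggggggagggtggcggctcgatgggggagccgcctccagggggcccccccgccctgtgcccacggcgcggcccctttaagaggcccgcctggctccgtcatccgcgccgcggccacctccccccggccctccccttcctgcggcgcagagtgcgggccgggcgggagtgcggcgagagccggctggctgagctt

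CACGTG began 89 bases before the KLHL22 start, 17 bases before that of PI4KA and 87 bases before that of FUBP3. The longer capital run of the KLHL22 promoter holds overlapping cores that began at -189 and -176. In FUBP3 a core began at -81, directly after the E-box, and another at +32. The BCR promoter held neither motif in this spelling. Of 35116 promoters of the same length, 7.26% held CACGTG and 27.0% held a core. These letters are a description of the window and not a measure of binding.

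For each peak the fragments over its summit (a whole number) and the background expected there were solved from the fold enrichment and p-value that the authors gave. Recovery succeeded for 100% of the peaks in each list. Fold enrichment is the fragments plus 1 over the background plus 1. The lowest background of a list, its genome-wide level, was between 2.60 and 2.80 fragments. Many peaks stood at or just above it, 9610 of 37574 in PLAG1-S clone 4, so 1.0 times the lowest is a floor. Input below that level would not show. The labels give depths of 42.5 M reads per immunoprecipitated library and 55 M per input, as single reads of 50 bases. The weakest PLAG1-S peaks have q-values close to 0.01 and the weakest USF2 peaks close to 0.05, so that numbers of peaks cannot be set against each other between the factors.

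The local background was higher in both windows than on the rest of the same chromosomes in all 4 lists. In the chromosome 22 window its median was 11.5 fragments in PLAG1-S clone 4 and 10.2 in clone 5, against 2.80 and 2.60 on the rest of the chromosome. The USF2 lists had medians of 11.1 and 9.95 there, against 3.44 and 3.78. In the chromosome 9 window PLAG1-S had medians of 16.1 and 15.8 and USF2 of 17.2 and 16.4. The rest of chromosome 9 stood at 3.32 and 3.05 in the PLAG1-S lists and at 3.44 and 3.31 in the USF2 lists. The 4 lists share their inputs, so their closeness is not 4 separate measurements of the background.

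**Figure D1:**
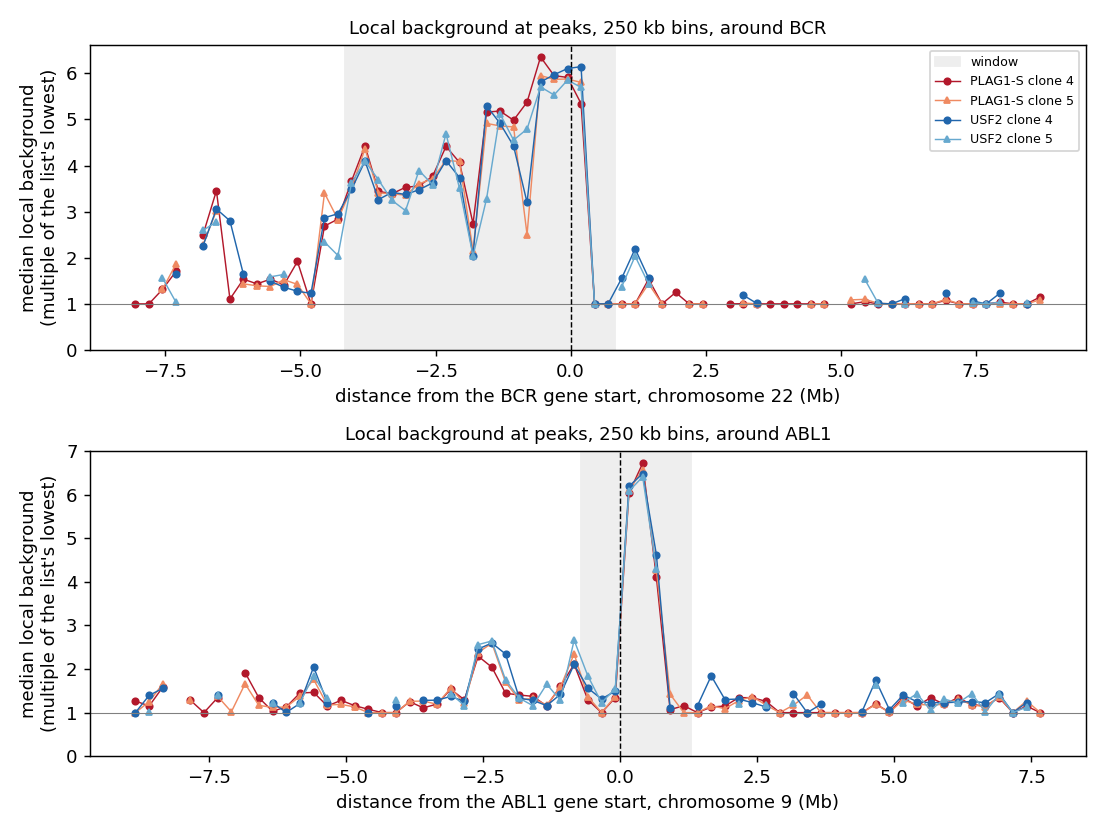
Median local background of the peaks in 250 kb bins, as a multiple of the lowest background of each list, against the distance from the start of BCR (top) and ABL1 (bottom) in Mb. Grey marks the windows, the dashed line the gene start, and each colour 1 of the 4 peak lists; bins without a peak are left blank. On chromosome 22 the 4 lists fall from between 5.34 and 6.14 times the lowest in the bin from 23.25 Mb to 1.0 times in that from 23.5 Mb. On chromosome 9 they rise from between 1.34 and 1.55 times in the bin from 130.5 Mb to between 6.04 and 6.19 times in that from 130.75 Mb.

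The bounds of the windows do not follow the background exactly. Just outside the proximal bound on chromosome 22, in the bin from 18.75 Mb, the PLAG1-S background was 2.84 and 2.83 times the lowest in clones 4 and 5, and just inside, in the bin from 19 Mb, it was 3.66 and 3.51 times. At the distal bound both PLAG1-S lists were at 1.0 times the lowest on either side. On chromosome 9 the bins just outside and just inside 130 Mb were at 2.11 and 1.30 times the lowest in PLAG1-S clone 4, and those at the distal bound at 1.0 outside and 1.16 inside. The raised background therefore began before the chromosome 22 window and filled only the middle of the chromosome 9 window.

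Splitting the background of the 4 lists by least squares into 2 stretches on chromosome 22 and 3 on chromosome 9, numbers chosen after the data were seen, placed every step at a gene. On chromosome 22 the step lay inside BCR, in the 19418 bp between the summits at chr22:23289915-23309333. On chromosome 9 the background rose inside ABL1, in the 25858 bp between the summits at chr9:130713191-130739049. It fell again in 9272 bp at FAM78A, at chr9:131279655-131288927. The raised stretch of chromosome 9 was thus 0.541 Mb long and that of chromosome 22 at least 4.29 Mb, since it runs on past the proximal bound.

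The stretches differed in median level, and that of chromosome 22 was uneven. Its bin from 19.75 Mb stood at 3.24 to 3.42 times the lowest in the 4 lists. That from 23 Mb, which holds the start of BCR, stood at 5.85 to 6.10 times. The median over the whole raised stretch of chromosome 9 was 6.12 to 6.29 times the lowest in the 4 lists, and over that of chromosome 22 it was 3.74 to 4.22 times. After the BCR step it was 1.0 times the lowest in both PLAG1-S lists and in USF2 clone 4, and 1.23 times in the 5 peaks of USF2 clone 5. Before the ABL1 step it was 1.09 and 1.17 times the lowest in the PLAG1-S lists and 1.43 and 1.55 times in the 7 and 4 peaks of the USF2 lists. Of all peaks on the numbered and sex chromosomes with a background at least 3 times the lowest, 64.5% and 68.8% lay in the windows for PLAG1-S in clones 4 and 5, and 69.9% and 66.3% for USF2. Each of those window peaks lay in a raised stretch.

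BCR itself was divided by the step. Before it, from 3 kb upstream of the gene, 24 and 37 PLAG1-S peaks and 26 and 16 USF2 peaks were listed in clones 4 and 5, on a median background of 16.8 to 19.03 fragments. After it, to 3 kb past the gene end, there were 3 and 1 PLAG1-S peaks and 0 and 4 USF2 peaks, on backgrounds of 2.60 to 3.67 fragments. The last clone 4 PLAG1-S peak before the step, with its summit at 23289915, had 38 fragments on a background of 16.8 and a fold of 2.19. The first after it, at 23309333, had 15 fragments on 3.67 and a fold of 3.43. Fewer fragments thus gave a larger fold on the far side of the step.

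The largest PLAG1-S folds of BCR came from 1 peak on each side. At its promoter PLAG1-S had 241 fragments on a background of 21.3 in clone 4, a fold of 10.8, and 267 on 19.7 in clone 5, a fold of 13.0. USF2 had 3 peaks in clone 4 and 2 in clone 5 within 1 kb of the start. Their summits were at -677, +94 and +816 bp in clone 4, with folds of 2.12, 2.37 and 2.83, and at -748 and +852 bp in clone 5, with folds of 2.13 and 2.61. Within the gene past the step, at chr22:23310718-23311532, PLAG1-S had 55 and 42 fragments on backgrounds of 2.80 and 2.60, with folds of 14.8 and 11.9. The promoter peak held over 4 times as many fragments as this one and had the smaller fold in clone 4 and the larger in clone 5.

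ABL1 showed the opposite arrangement, with the low background at its 5′ end. Near the RefSeq gene start, before the step, PLAG1-S clone 4 had a fold of 7.78 (36 fragments on 3.76), PLAG1-S clone 5 a fold of 4.73 and USF2 clone 4 a fold of 4.08. These summits were 127 to 382 bp from the gene start, the 2 PLAG1-S peaks did not overlap, and USF2 clone 5 had none. After the step 2 and 9 PLAG1-S peaks and 11 and 5 USF2 peaks were listed, with backgrounds of 16.3 to 25.2 fragments and folds of 2.04 to 3.56. Of these, 1 clone 4 PLAG1-S peak and 3 clone 4 USF2 peaks overlapped a peak of the other clone. Over the genome 57.1% of clone 4 PLAG1-S peaks and 25.8% of clone 4 USF2 peaks did. At the second promoter in RefSeq, with its start at 130835254, the largest folds were 2.79 and 3.49 for PLAG1-S and 3.56 for USF2 clone 4. The 2 PLAG1-S values came from different peaks, with summits at -203 bp in clone 4 and +605 bp in clone 5. USF2 clone 5 had no peak within 1 kb.

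**Figure D2:**
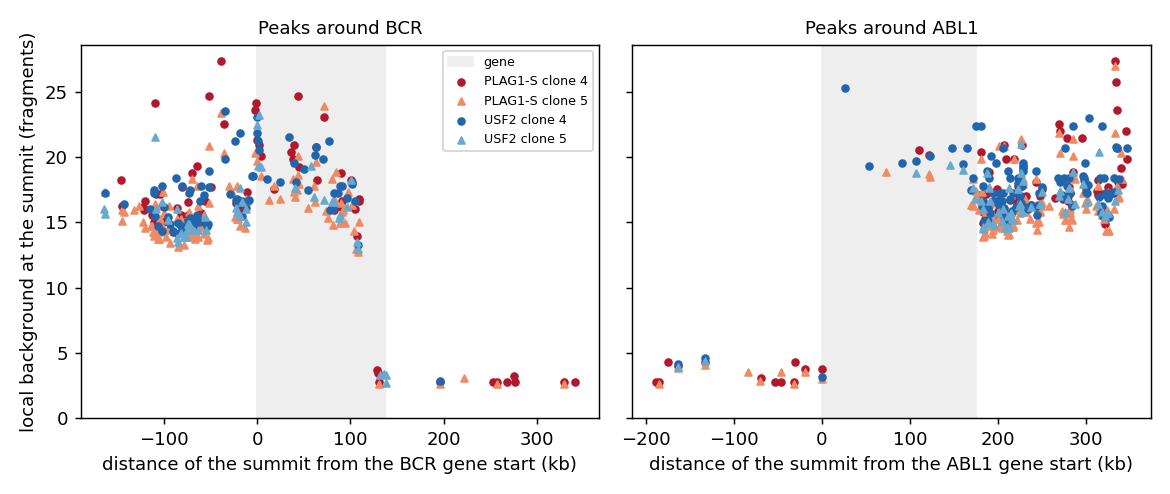
Local background in fragments at each peak summit against the distance from the start of BCR (left) or ABL1 (right) in kb, 1 point per peak and 1 colour per list. The grey band is the gene. Points fall from 12.7 or more to 3.67 or less near the 3′ end of BCR and rise from 4.59 or less to 16.3 or more inside ABL1.

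Peaks were dense in both windows. The chromosome 22 window held 133.8 PLAG1-S peaks per Mb in clone 4 and 170.0 in clone 5, which was 7.57 and 11.98 times the density on the rest of the chromosome. USF2 had 109.6 and 60.6 peaks per Mb there, 26.8 and 22.9 times the rest. With 9.84% of the length of chromosome 22, the window held 74.6% and 71.5% of its USF2 peaks. On chromosome 9 PLAG1-S had ratios of 7.66 and 10.6 and USF2 of 27.4 and 37.2. Against only the 5 Mb on either side, the mean ratios were lower on both chromosomes. For PLAG1-S they fell from 9.77 to 6.89 on chromosome 22 and from 9.12 to 1.49 on chromosome 9, and for USF2 from 24.89 to 10.4 and from 32.3 to 6.19.

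Most of these peaks had a low fold on many fragments. In the chromosome 22 window the median PLAG1-S fold in clone 4 was 3.38 on 42 fragments, against 5.27 on 23 fragments on the rest of the chromosome. Folds under 4 made up 67.7% and 73.5% of the PLAG1-S peaks there, against 17.04% and 18.6% on the rest. For USF2 they made up 91.8% and 82.5%, against 33.2% and 30.6%. On chromosome 9, 94.8% and 96.4% of the USF2 peaks in the window were under 4. The smallest fold listed was 3.08 to 3.33 where the background was at its lowest and 1.83 to 2.06 in the raised stretches. Folds under 3 made up 37.5% and 39.4% of the PLAG1-S peaks in the raised stretches, against 1.76% and 1.60% on the rest of chromosomes 22 and 9.

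With folds of at least 5 the density ratios were smaller. On chromosome 22 PLAG1-S had 2.30 and 3.04 times the rest and USF2 2.75 and 3.70 times. On chromosome 9 PLAG1-S had 3.32 and 3.10 times and USF2 2.52 and 1.89 times, the latter on 4 and 2 peaks. No USF2 peak of the raised stretch of chromosome 9 reached a fold of 5, among 145 and 80 peaks. The highest folds there were 3.76 and 3.51.

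**Figure D3:**
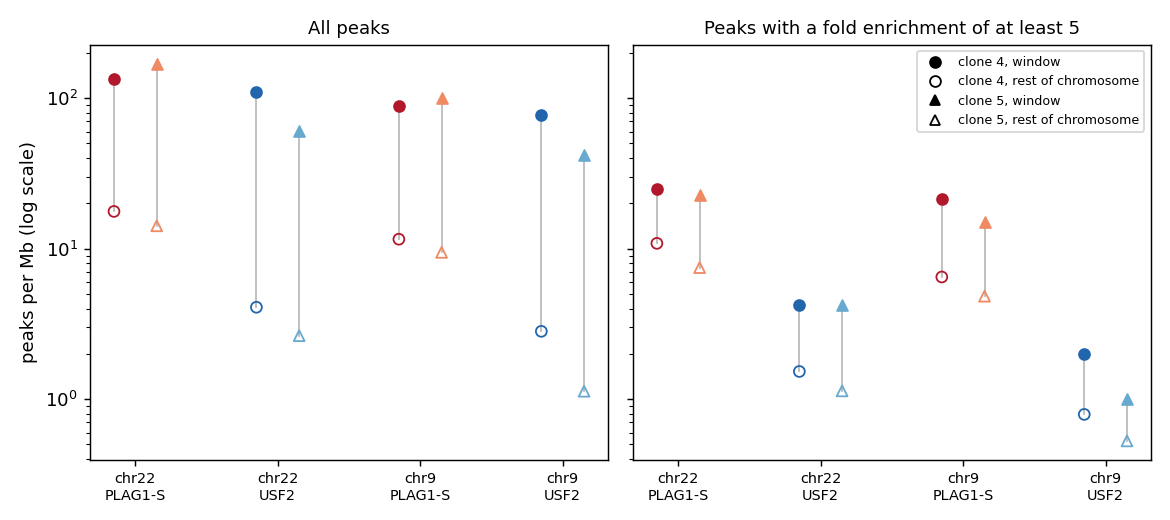
Peaks per Mb on a log scale in the windows (filled) and on the rest of the same chromosome (open), for all peaks (left) and for peaks with a fold enrichment of at least 5 (right), by chromosome, factor and clone. Each pair of points joined by a line is 1 list. The gap between window and rest narrows from 7.57-fold or more on the left to between 1.89 and 3.70-fold on the right.

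In the raised stretch of chromosome 22 the largest clone 4 folds of both factors were at the starts of KLHL22 and PI4KA. At KLHL22, which encodes a substrate adaptor of a cullin ubiquitin ligase, PLAG1-S folds were 17.03 and 16.93 in clones 4 and 5 and USF2 folds were 12.2 and 9.81. The summits of PLAG1-S and USF2 in clone 4 were 5 bp apart, 92 and 87 bp before the start, at the E-box printed above. Between PI4KA, a phosphatidylinositol kinase, and SNAP29, a SNARE protein of autophagosome fusion, PLAG1-S folds were 16.3 and 15.6 and USF2 folds 13.9 and 11.0. The clone 4 summits lay 6 and 9 bp before the PI4KA start, 190 and 187 bp from that of SNAP29. Both sites were present in all 4 lists on backgrounds of 14.2 to 17.2 fragments.

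PLAG1-S folds exceeded USF2 folds at both sites, and at 4 further sites shared by the 4 lists. Between RANBP1, a regulator of the nuclear transport GTPase Ran, and TRMT2A, a tRNA methyltransferase, PLAG1-S folds were 14.02 and 12.14 and USF2 folds 6.49 and 4.98. At YPEL1 PLAG1-S reached 11.8 and 10.7 and USF2 6.51 and 4.17. A peak between genes at chr22:22934049-22935000, 38471 bp from IGLL5, had PLAG1-S folds of 16.3 and 16.7 and USF2 folds of 7.03 and 4.70. Another, 13098 bp from GGTLC2, had PLAG1-S folds of 10.5 and 13.8 and USF2 folds of 8.35 and 7.10. At all 6 sites both PLAG1-S values lay above both USF2 values. These sites were picked by their clone 4 folds, so they do not stand for all shared sites. On the rest of chromosome 22 the median PLAG1-S fold was also larger, at 5.27 and 5.28 against 4.47 and 4.75 for USF2. A weaker site inside FAM78A on chromosome 9, in all 4 lists, had 2.77 for PLAG1-S and 3.59 for USF2 in clone 4, and 3.39 and 2.99 in clone 5.

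In the chromosome 9 window the strongest site lay before the ABL1 step. At the start of FUBP3, which encodes a single-strand DNA and RNA binding protein, PLAG1-S folds were 26.1 and 19.9 and USF2 folds 14.1 and 11.3, on backgrounds of 4.07 to 4.59. The 4 summits lay 72 to 85 bp before the start, beside the E-box printed above. PLAG1-S peaks with no USF2 peak in either clone were found inside HMCN2, with folds of 16.3 and 10.8, and 22251 bp from PLPP7, with folds of 10.4 and 10.3. A site 3477 bp from NCS1, a neuronal calcium sensor, was in all 4 lists with PLAG1-S folds of 9.42 and 7.43 and USF2 folds of 5.64 and 5.20.

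In the raised stretch of chromosome 9 the largest folds were lower. Inside FIBCD1, an endocytic receptor for acetylated ligands, PLAG1-S folds reached 9.25 and 6.56, with 163 and 109 fragments. USF2 had folds of 2.87 and 2.51 at that peak. A site 10670 bp from NUP214, a nucleoporin, had PLAG1-S folds of 8.85 and 7.34 and no USF2 peak. Inside FAM78A, PLAG1-S folds were 8.83 and 6.47 and USF2 folds 3.58 and 3.51. FUBP3, before the step, reached its folds with 137 and 100 fragments, fewer than the 163 and 109 at FIBCD1.

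**Figure D4:**
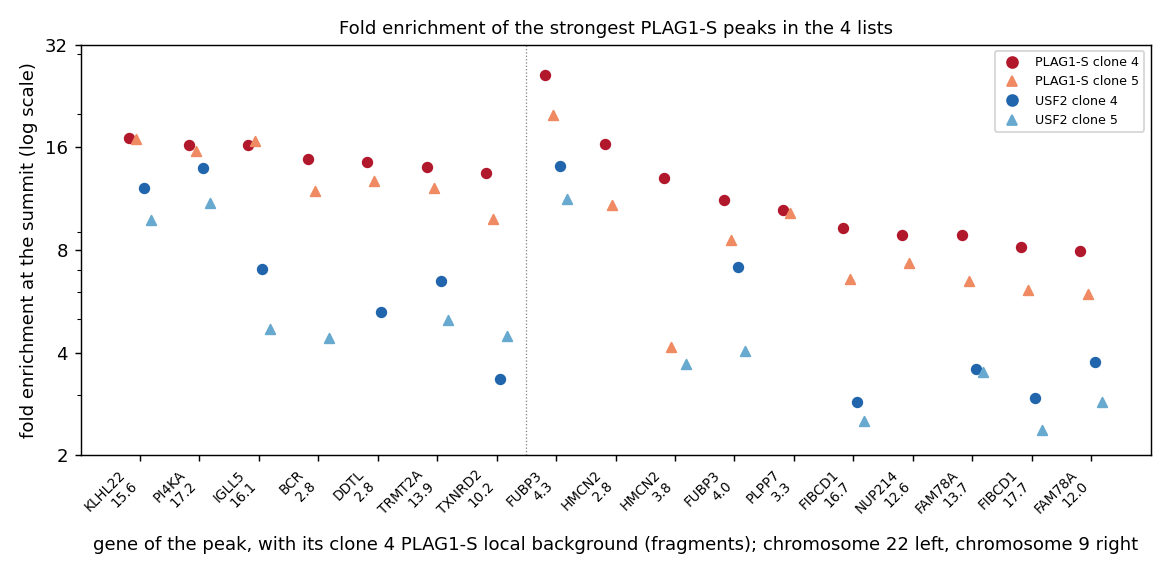
Fold enrichment on a log scale at the strongest PLAG1-S peaks of each window and of its raised stretch, each named by its nearest gene with its clone 4 PLAG1-S background in fragments below. Colours mark the 4 lists and a missing point means no peak in that list. KLHL22 and PI4KA on high backgrounds and the stronger FUBP3 site on a low one have USF2 folds of at least 9.81 in both clones, and the other sites do not exceed 7.13.

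A set of 66 genes of the windows had been listed by position and role, and a peak was assigned to a gene when its summit lay in the gene or within 3 kb. PLAG1-S peaks that overlapped between clones were found at 60 of these 66 genes and USF2 peaks that overlapped at 33. By the same rule, 51.9% of all 20037 coding genes had such a PLAG1-S peak and 10.2% such a USF2 peak. Of the 86 coding genes of the chromosome 22 window 87.2% and 44.2% had one, and of the 23 of the chromosome 9 window 78.3% and 34.8%. A peak in each of the 4 lists was found at 39 listed genes, against 11.4% of all coding genes. In the chromosome 22 and 9 windows 58.1% and 34.8% of the coding genes had one. RGL4, IGLL1 and VPREB1 had none in any list.

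Of 20 genes of the 22q11.2 deletion region, the part of the chromosome lost in DiGeorge syndrome, 19 had overlapping PLAG1-S peaks (51.9% of all coding genes did) and 12 overlapping USF2 peaks (10.2%). Over the whole chromosome 22 window the shares were 87.2% and 44.2%. TBX1, the T-box factor of heart and pharyngeal development, had 13 and 19 PLAG1-S peaks with folds up to 6.67 and 10.7, and 8 and 5 USF2 peaks with folds up to 4.59 and 3.14. At HIRA, a histone chaperone, the largest PLAG1-S folds were 10.2 and 7.66, and those of USF2 3.95 and 2.86. SERPIND1 had 1 peak only, in PLAG1-S clone 5, with a fold of 3.0. PLAG1-S folds exceeded USF2 folds in both clones at TBX1 and HIRA.

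All 8 genes between that region and the lambda light chain genes had overlapping PLAG1-S peaks and 7 had overlapping USF2 peaks, against the same 51.9% and 10.2%. YDJC reached PLAG1-S folds of 12.6 and 12.3 and USF2 folds of 4.15 and 3.27. Among the 6 genes of ABL1 signalling, 5 had overlapping PLAG1-S peaks (51.9% of all) and 3 overlapping USF2 peaks (10.2%). For both groups the shares of the windows themselves were higher than over the genome. They were 87.2% (PLAG1-S) and 44.2% (USF2) on chromosome 22 and 78.3% and 34.8% on chromosome 9. CRKL, the adaptor that BCR-ABL1 phosphorylates, had 1 PLAG1-S peak in each clone at its start, with folds of 3.31 and 3.73 on backgrounds of 19.9 and 18.8. RAPGEF1, a guanine nucleotide exchange factor bound by CRKL, lay past the second step of chromosome 9 and had PLAG1-S folds of 6.06 and 5.00 on backgrounds of 2.80 and 2.60, with no USF2 peak.

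Past the BCR step USF2 had 7.24 peaks per Mb in each clone, against 126.6 and 69.5 in the raised stretch before it. The 7 genes listed as a group distal of BCR all had PLAG1-S peaks that overlapped between clones. Of these 7, 2 had a USF2 peak in clone 4 and none had one in clone 5. Over all coding genes these shares were 51.9%, 25.2% and 13.5%. The USF2 counts of 7 genes are too small to be set apart from those shares. RGL4 and IGLL1, listed in other groups, also lie past the step and had no peak in any list. SMARCB1, a subunit of the SWI/SNF complex, and DERL3 overlap. Just outside both genes on the side of higher coordinates, 197 bp from DERL3 in clone 4, PLAG1-S had folds of 14.5 and 10.6. USF2 clone 4 had a fold of 5.79 there. MIF, a cytokine, had its largest PLAG1-S fold in clone 4, 11.6, past the gene end. Inside MIF the PLAG1-S folds were 8.17 and 7.22. CHCHD10, a mitochondrial protein, had PLAG1-S folds of 9.75 and 8.06. The median fold of all PLAG1-S peaks past the step was 5.53 and 6.67 in clones 4 and 5, against 3.33 and 3.25 before it. The folds past the step stood on a median of 20.5 and 23 fragments, and those before it on 43 and 37.

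On chromosome 9, the 6 listed genes before ABL1 all had overlapping PLAG1-S peaks and 1, FUBP3, had overlapping USF2 peaks, beside 51.9% and 10.2% of all coding genes. ASS1, the argininosuccinate synthase, had largest PLAG1-S folds of 10.0 and 6.23 and a USF2 fold of 5.77 in clone 4 alone. Inside the gene the largest PLAG1-S folds were 9.25 and 6.23. Of the 10 listed beyond ABL1, 8 had overlapping PLAG1-S and 6 overlapping USF2 peaks, beside the same shares. MED27, POMT1, PRRC2B and UCK1 of that group lie past the second step and had no USF2 peak in clone 5. Of all coding genes 13.5% had one, so its absence at these few genes does not set them apart. AIF1L, an actin-bundling protein in the raised stretch, had 16 and 21 PLAG1-S peaks and 16 and 9 USF2 peaks, with USF2 folds of at most 3.11.

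Many weak peaks lay in the bodies of a few genes. RSPH14 held 43 and 65 PLAG1-S peaks and 50 and 25 USF2 peaks in its 121 kb, on median backgrounds of 14.8 to 16.6 fragments. GNAZ, a G protein alpha subunit, overlaps RSPH14 and held 26, 41, 27 and 16 of them in the same order. The largest USF2 fold in RSPH14 was 3.70. LAMC3, a laminin chain on chromosome 9, held 32 and 39 PLAG1-S peaks and 39 and 15 USF2 peaks in 85.3 kb, with USF2 folds of at most 3.24. FIBCD1 held 26 and 34 PLAG1-S peaks and 29 and 22 USF2 peaks in 38.3 kb. Of the clone 4 USF2 peaks, 13 of 50 in RSPH14, 11 of 39 in LAMC3 and 14 of 29 in FIBCD1 overlapped one of clone 5. Over the genome 25.8% of clone 4 USF2 peaks did, and in the chromosome 22 and 9 windows 22.1% and 34.2%.

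The lambda light chain locus, 0.897 Mb with 87 annotated segments, encodes antibody light chains in B cells. It held 71 and 77 PLAG1-S peaks and 53 and 31 USF2 peaks, with folds up to 13.8 for PLAG1-S and 8.35 for USF2. The bin from 21.25 Mb, outside that locus, stood below its neighbours, at 2.04 to 2.74 times the lowest background. Parts of this chromosome arm occur in near-identical copies (TMEM191C, RIMBP3C, DGCR6L, GGTLC2), and how reads that match several copies were assigned is not given in the sources used here, so values at those genes are uncertain.

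The share of peaks near the ends of coding genes was lower in the windows than on the rest of the chromosomes in all 4 lists, by the least for USF2 clone 4 on chromosome 22. Within 3 kb of an end were 30.8% and 29.3% of the PLAG1-S peaks in the chromosome 22 window, against 38.6% and 43.1% on the rest. In the chromosome 9 window they were 26.6% (47 of 177) and 56 of 200, against 39.3% and 45.3%. For USF2 clone 4 on chromosome 22 the shares were 28.5% in the window and 28.9% on the rest. Deeper inside genes lay 49.7% to 56.1% of the peaks of the chromosome 9 window in the 4 lists, against 24.7% to 29.5% on the rest.

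The share of clone 4 peaks that overlapped a clone 5 peak by at least 1 bp was 57.1% for PLAG1-S over the genome. In the chromosome 22 window it was 69.4% (464 of 669, 95% Wilson interval 65.8 to 72.7%), and in the chromosome 9 window 72.3% (128 of 177). Seen from clone 5 the order turned, with 53.5% and 63.0% in the windows and 72.6% over the genome. Clone 5 listed more peaks than clone 4 in the windows and fewer on the rest of these chromosomes, so the share depends on which list is the denominator. For USF2, 25.8% of clone 4 peaks overlapped over the genome, 22.1% (121 of 548) in the chromosome 22 window and 34.2% (53 of 155) in the chromosome 9 window. Intervals cover counting error only, and peaks are not replicates.

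Between fold 3 and 6, a larger share of clone 4 PLAG1-S peaks overlapped in the raised stretches than on the rest of chromosomes 22 and 9. Between fold 3 and 4 the shares were 68.5% (183 of 267) and 32.4% (119 of 367), and between 4 and 6 they were 88.2% and 41.8%. Counted from clone 5 the gaps were smaller, with 54.2% and 46.0% between fold 3 and 4 and 73.3% and 62.9% between 4 and 6. Clone 4 USF2 peaks between fold 4 and 6 overlapped in 61.3% (19 of 31) and 13.2% (30 of 227). For clone 5 USF2 peaks these shares were 64.1% (25 of 39) and 35.2% (38 of 108). At other folds clone 5 USF2 went the other way. From fold 6 its shares were 55.6% (5 of 9) and 85.2% (75 of 88), and under fold 3 they were 44.7% (109 of 244) and 61.5% (8 of 13). A given fold stands on more fragments where the background is high, and the part of this in the shares was not tested.

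A smaller share of reproducible USF2 peaks coincided with reproducible PLAG1-S peaks in the windows. Over the genome 87.4% of reproducible USF2 peaks lay within 100 bp of a reproducible PLAG1-S peak. In the chromosome 22 window 51.2% did (62 of 121, interval 42.4 to 59.97%), against 82.5% (47 of 57) on the rest of the chromosome. In the chromosome 9 window 62.3% did (33 of 53), against 96.4% (80 of 83). With peaks of −log10 q at least 10 the counts were 8 of 11 and 3 of 3. Counted from PLAG1-S the shares went the other way, with 13.6% of reproducible PLAG1-S peaks in the chromosome 22 window within 100 bp of a reproducible USF2 peak against 10.4% on the rest. In the chromosome 9 window the share was 26.6% against 8.93%, and over the genome 9.82%. All 4 lists held a peak at 64 of the 669 clone 4 PLAG1-S peaks of the chromosome 22 window and at 35 of 177 in the other. This count was not made outside the windows, so whether it is high or low is not known.

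Counted by gene, a reproducible PLAG1-S peak lay within 1 kb of an end of 79.1% of the 86 coding genes of the chromosome 22 window and 65.2% of the 23 of the chromosome 9 window, against 40.1% of 20037 coding genes over the genome. Reproducible USF2 peaks marked 30.2% and 21.7%, against 7.46% over the genome. With peaks of fold at least 5 in clone 4, the PLAG1-S shares were 40.7% and 30.4%, against 31.1% over the genome, and the USF2 shares 6.98% and 4.35%, against 6.31%. The intervals of these shares were wide, at 30.9 to 51.3% for PLAG1-S on chromosome 22 and 15.6 to 50.9% on chromosome 9. The genome share lay within each of the 4, but genes are not replicates, so this tests no difference. Fold depends on the background by which the windows were chosen.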

How the data were processed

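ChIP-seq peaks came from 4 lists, PLAG1-S (anti-Flag) and USF2 in K562 clones 4 and 5, each called by the authors with MACS2 against the merged inputs. Per the labels' processing notes reads were aligned with HISAT2 2.0.4 to hg38; the MACS2 version is not given in the sources used here. The fold deposited by the authors is a ratio of fragments to local background at the summit. The −log10 p and −log10 q values deposited by the authors come from a Poisson model, and the deposited score is 10 times the −log10 q. Immunoprecipitated libraries were not pooled.

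Fragments (n) and background (λ) were solved from fold = (n + 1)/(λ + 1) and the Poisson −log10 p, and a peak was accepted when n was whole and the −log10 p was met within 0.001. Tested on 2000 simulated summits, the recovery returned the right number for 100%. Peaks were members when they overlapped a window. Genes and promoters are from RefSeq (GRCh38). A reproducible peak is a clone 4 peak that overlaps a clone 5 peak by 1 bp. Named genes were those of 8 lists and those nearest the 5 largest reproducible folds per factor and window. Those of the 3 largest backgrounds and the 3 genes with the most clone 4 PLAG1-S peaks were also named. Promoters were printed for BCR and for genes nearest the largest folds, where all 4 lists had a peak within 1 kb of the start. FAM78A, whose starts lie within 1 cluster of peaks, was left out. YPEL1, with a site in all 4 lists 210 bp from its start, was not printed either. Some listed genes are not reported here. Strongest peaks of the raised stretches alone were added after the data were seen. The windows, lists and tests were chosen with earlier results of these data known. The clone number marks the same clone in both factors. No test was run, since there are 2 clones per factor, peaks are not replicates and the windows were chosen on these lists; intervals are Wilson. Python 3.11.15, numpy 2.4.6, pandas 2.3.3, scipy 1.17.1, statsmodels 0.14.6 and matplotlib 3.10.9 were used.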

Additional observations from a re-analysis of the deposited data

Results flagged for a closer look

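The median peak width in the chromosome 22 window differed in direction between the factors. It was wider than on the rest of the chromosome for PLAG1-S in both clones, with a mean ratio of 1.04, and narrower for USF2 in both clones, with a mean ratio of 0.885. In the chromosome 9 window the peaks of both factors were wider than on the rest, with ratios of 1.06 and 1.12 for PLAG1-S in clones 4 and 5 and 1.14 and 1.06 for USF2. The narrower USF2 peaks were thus seen in the chromosome 22 window only. The difference between the factors was not tested, and the lists end at different q-values.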

How the results depend on the processing

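No paired analysis was possible because the values come from no test. Background and density ratios are means of the 2 clones, and none of them fell to 1 or below. Leaving out either clone gave chromosome 22 background ratios of 3.91 to 4.11 (PLAG1-S) and 2.63 to 3.23 (USF2), chromosome 9 background ratios of 4.84 to 5.16 and 4.95 to 5.00, and USF2 co-bound shares of 45.8 to 57.4% and 53.5 to 76.2%; the higher chromosome 9 share is without clone 4. Density ratios without a clone were 7.57 to 11.98 and 22.9 to 26.8 on chromosome 22 and 7.66 to 10.6 and 27.4 to 37.2 on chromosome 9. With −log10 q at least 10, background ratios were 4.16 (PLAG1-S) and 4.18 (USF2) on chromosome 22 and 4.37 and 2.36 on chromosome 9. Density ratios were then 7.02 for PLAG1-S on chromosome 9, and 6.10 and 5.84 for USF2 on chromosomes 22 and 9. Overlapping shares under that limit were 65.2% and 60.3% in PLAG1-S and 33.3% in USF2 on chromosome 22, and co-bound shares 72.7% and 100%. Against the 5 Mb on either side, background ratios were 2.78, 4.66, 2.29 and 4.79 (PLAG1-S on chromosomes 22 and 9, then USF2), and density ratios 1.49 for PLAG1-S on chromosome 9 and 10.4 and 6.19 for USF2. With peaks overlapping the other clone alone, background ratios were 4.26, 4.66, 4.10 and 4.46 in the same order, and with means in place of medians 3.12, 3.67, 2.41 and 4.29. Windows ended at BCR and ABL1 gave density ratios of 11.99 for PLAG1-S on chromosome 9 and 28.6 and 48.0 for USF2. With fold at least 5, chosen after seeing the data, the density ratios were 2.67, 3.21, 3.22 and 2.21. A 50% reciprocal overlap gave PLAG1-S shares of 49.5% and 54.8% and USF2 shares of 12.4% and 19.4%, and the share of clone 5 peaks was 53.5%, 63.0%, 40.6% and 64.3%. Summits within 100 bp gave co-bound shares of 30.6% and 41.5%. The causes were not tested. The peak lists hold no region without a peak, so the background is known at summits only, and overlap between 2 lists allows no leaving out of a clone. The PLAG1-S overlapping share lies above or below the genome according to the clone it is counted from.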
